A study of Homo sapiens with 12 samples.

Results

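MOLM-13 leukemia cells received decitabine (DAC), all-trans retinoic acid (ATRA) or both, and the interaction asks for each gene whether the change with both drugs equals the sum of both single changes. It was computed on log2 values of all 12 libraries, as the change with DAC in the presence of ATRA (DAC+ATRA minus ATRA) minus the change with DAC in its absence (DAC minus untreated). A positive interaction places DAC+ATRA above the sum, and a negative one places it below. The values of the transcripts of a gene were added up, over 46639 gene symbols, and the test covered the 10641 protein-coding genes with 10 normalised counts or more in 3 or more libraries. At a limma adjusted p under 0.01 the interaction was called in 170 of them (1.6%), above the sum in 77 (0.724%) and below it in 93 (0.874%).

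MOLM-13 is an established human line of acute myeloid leukemia (AML) that carries the MLL-AF9 fusion. It is given here as grown with GM-CSF, which the culture methods of the study do not name. The 4 groups of 3 libraries were untreated cells, cells given 100 nM DAC afresh on each of 3 days, cells given 1 µM ATRA, and cells given both drugs. The libraries are technical triplicates of 1 experiment in 1 line, so that each p-value measures only the spread between such libraries. Untreated libraries are labelled with 96 h and treated ones with 72 h, whereas the text deposited with the series gives a harvest after 72 h for all. ATRA was added together with the last DAC dose according to the methods of the study, whereas the labels give 72 h of treatment for the ATRA and DAC+ATRA libraries too, so the length of exposure to ATRA is uncertain. A vehicle group was not analysed here. The untreated level enters every interaction, so a difference in culture time of the untreated cells cannot be told apart from an interaction of the drugs.

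DAC is a cytidine analogue that is built into DNA and traps DNA methyltransferases, so that methylation is lost as cells divide. ATRA is the ligand of the retinoic acid receptors, which bind DNA with retinoid X receptors, and it drives myeloid cells of some leukemias to mature. On the log2 scale both single changes add up when each drug multiplies the level of a gene by a factor that does not depend on the other drug. An interaction of 1 therefore stands for a level with both drugs that is 2 times that product of the single factors.

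The untreated libraries held 8.95 to 11.9 M reads (M for mega), the DAC libraries 4.67 to 6.95 M, the ATRA libraries 8.36 to 10.7 M and the DAC+ATRA libraries 5.61 to 7.16 M, so both DAC-treated groups were sequenced less deeply. The median SD of the log2 values of a gene was largest in DAC (0.280) and 0.172, 0.208 and 0.171 in untreated, ATRA and DAC+ATRA. DAC replicate 3 stood apart from the other libraries on the third principal component, with a score of 41.6 where the others lay between -18.4 and 14.6. Without this library 262 genes were called (2.46%), 116 above and 146 below, and they held 167 of the 170. Of the 11 markers of the line, 10 had a median of at least 10 normalised counts over the libraries. CD14 was the exception at 6.596, and the most reads that any T cell, B cell, erythroid or epithelial marker had in a library was 39.

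**Figure D1:**
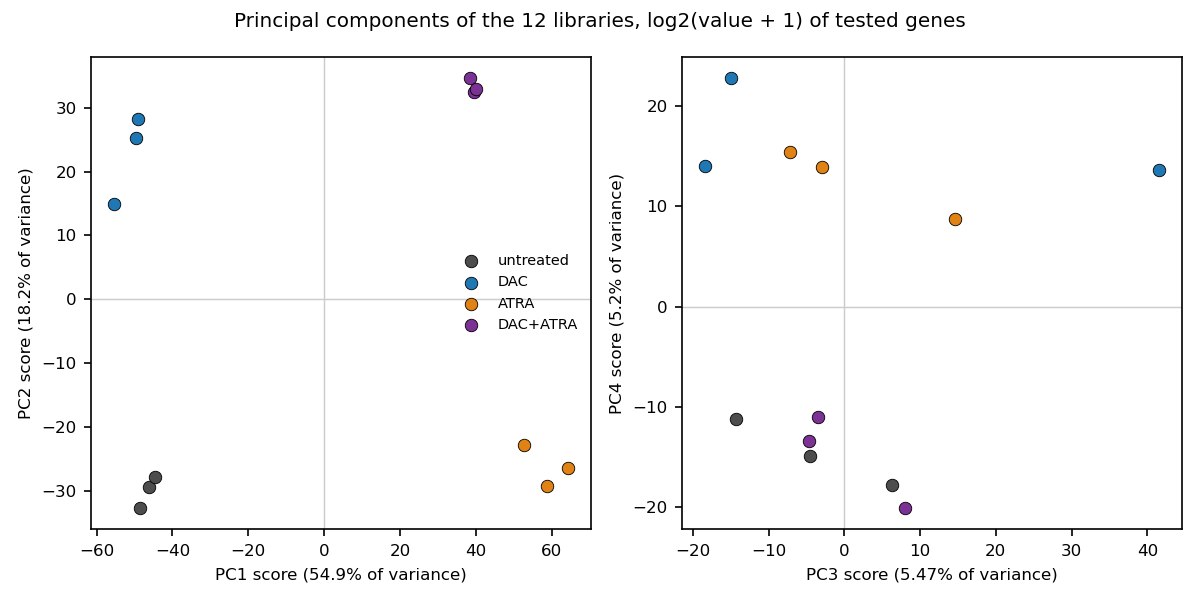
Scores of the 12 libraries on the first 4 principal components of log2(normalised count + 1) over the tested genes, with 1 point per library and colour for the group. On PC4 the untreated (-17.8 to -11.2) and DAC+ATRA (-20.1 to -11.1) libraries lie below 0, and the DAC (13.6 to 22.8) and ATRA (8.77 to 15.4) libraries lie above it.

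The largest components separated the groups by drug, and the interaction appeared on a small one. PC1 held 54.9% of the variance and set the ATRA-treated libraries apart from those without ATRA, and PC2, with 18.2%, set those with DAC apart from those without it. PC4, with 5.20%, placed untreated and DAC+ATRA on one side and both single drugs on the other, which is the sign pattern of the interaction. The interaction of all tested genes had a median of 0.03, and 53.7% of genes were positive. Without adjustment, 1570 genes had a limma p under 0.05. Of the 170 called genes, edgeR on the recovered reads called 164 (1.84% of all genes) and DESeq2 called 167 (3.2% of all genes), and both called 163. In 96 of them the limma call held in each of the 12 fits that left out 1 library, and in 95 it held in these fits and in both other tools (37 above and 58 below).

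The group that stood apart was ATRA for most called genes. For every called gene each group mean was left out in turn, and the group whose removal left the smallest range of the other 3 means was taken as the one apart, which is a description of genes that the same contrast had chosen and has no test. ATRA stood apart in 93 of the 170 genes (54.7%), untreated in 32, DAC in 28 and DAC+ATRA in 17. The share of all tested genes with each group apart was not computed. ATRA alone also had more calls than DAC alone, at 12.1% higher and 14.0% lower of all genes against 4.29% and 3.67%. Where ATRA stood apart it was the highest group in 54 genes and the lowest in 39. This rule fixes the sign of the interaction by arithmetic. ATRA or DAC apart and highest always lies below the sum, and lowest above it. For untreated and DAC+ATRA the reverse holds. Among the genes of the other groups apart, DAC was the lowest in 18 and the highest in 10, untreated the lowest in 20 and the highest in 12, and DAC+ATRA the highest in 8 and the lowest in 9. The group was clear of the rest, with a gap to the nearest mean that exceeded the range of the other 3, in 59 genes for ATRA, 19 for DAC, 16 for untreated and 12 for DAC+ATRA.

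**Figure D2:**
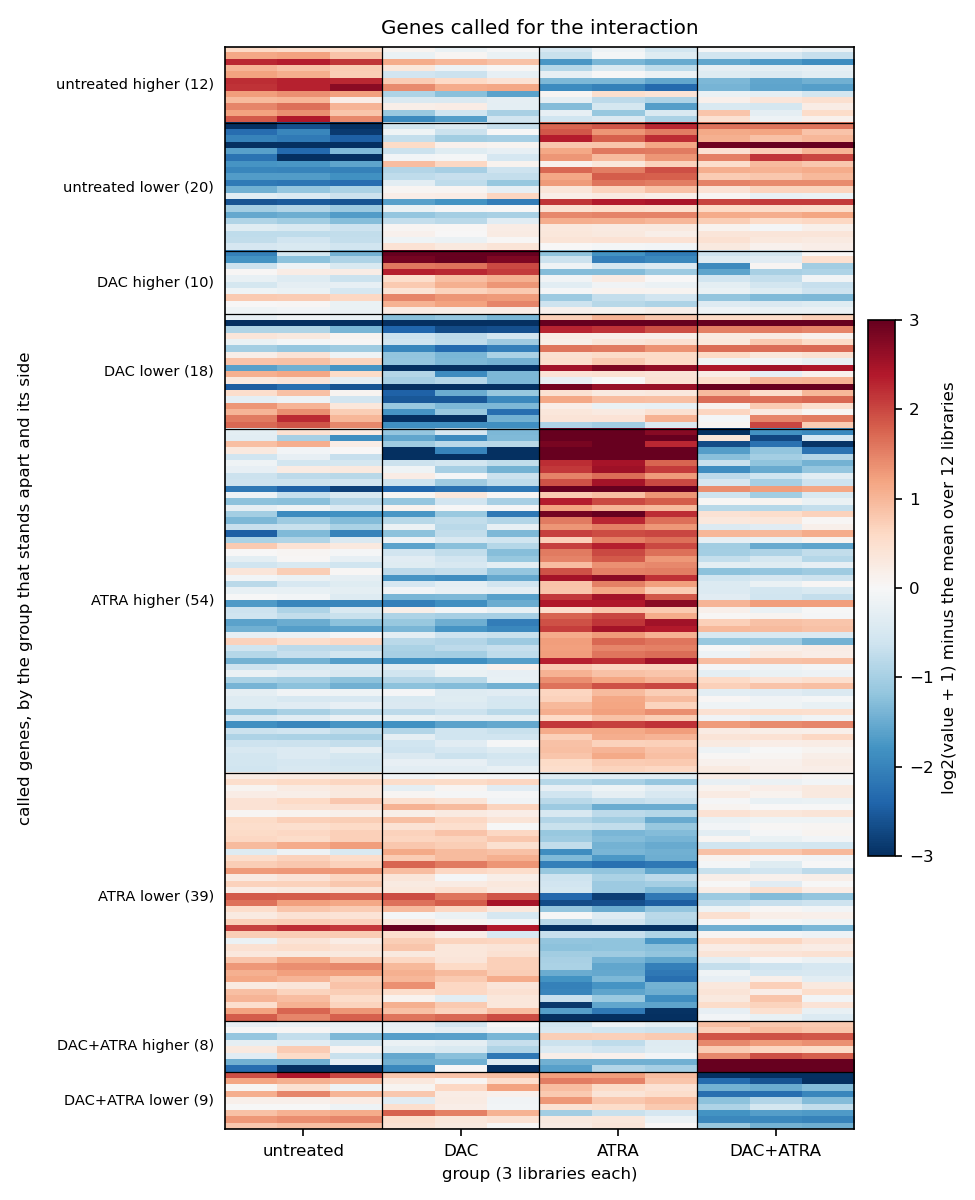
Level of the 170 called genes (rows) in the 12 libraries (columns, 3 per group), as log2(normalised count + 1) minus the mean of the gene over all libraries, with colours cut at -3 and 3. Rows are grouped by the group that stands apart and its side, with the number of genes, and the 54 genes with ATRA apart and highest and the 39 with ATRA apart and lowest fill the largest blocks.

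Each interaction was next read through the 2 changes that it compares, which come from the same libraries and describe the called genes without testing them. Of the 93 genes below the sum, 75 were called higher in ATRA than in untreated (12.1% of all tested genes were), with a median change of 1.74 on the log2 scale over the 93. When DAC was present, 41 of these 75 were still called higher with ATRA (9.04% of all), 31 had no call and 3 were called lower (9.74% of all). Of the 77 genes above the sum, 54 were called lower in ATRA than in untreated (14.0% of all). With DAC present, 21 of these 54 were still lower with ATRA, 27 had no call and 6 were higher. The change with DAC read the same way: 49 of the 93 genes below the sum had no call for DAC against untreated and were called lower in DAC+ATRA than in ATRA (5.46% of all). Of the 77 above the sum, 38 had no call with DAC alone and were called higher when DAC was added to ATRA (6.47% of all). Below the sum, 29 genes were called higher with DAC alone (4.29% of all). In 25 of the genes above it DAC alone was called lower (3.67% of all) and DAC added to ATRA had no call.

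**Figure D3:**
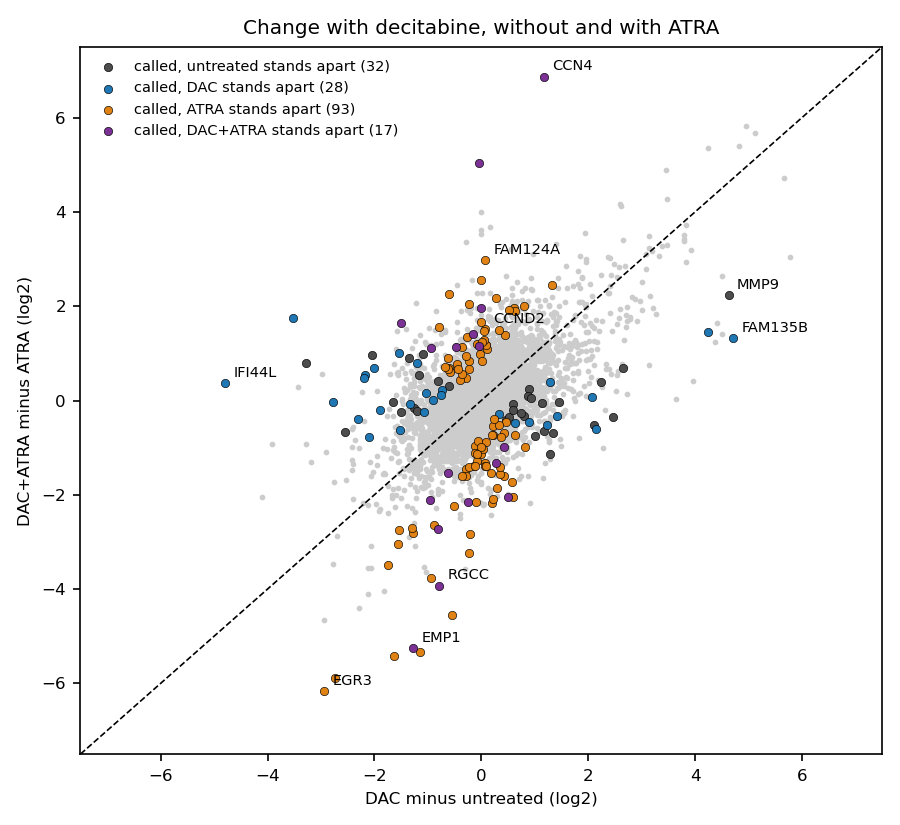
Change with DAC alone (DAC minus untreated, log2, x axis) against the change with DAC on top of ATRA (DAC+ATRA minus ATRA, log2, y axis) for the 10641 tested genes (grey) and the 170 called genes (coloured by the group that stands apart). The dashed line marks equal changes, which is an interaction of 0, and most genes apart in ATRA lie near 0 on the x axis and away from 0 on the y axis.

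Type I interferon-stimulated genes formed the largest theme above the sum. These antiviral genes are switched on when interferon receptors activate a complex of transcription factors that binds the interferon-stimulated response element in their promoters. Of 47 tested members of the list, 12 were called above the sum and none below, against 0.724% of all genes above, and 38 of the 47 were positive. The median interaction of the list was 0.63, beside 0.03 over all genes. Each of the 12 was called lower in DAC than in untreated (3.67% of all genes were). In DAC+ATRA, 10 of the 12 were called higher than in DAC (9.04% of all). The 12 were chosen by their positive interaction, which favours a low DAC level. Of all 47 tested members, 20 were called lower in DAC than in untreated and 3 higher. Against DAC, DAC+ATRA was called higher in 27 of the 47 and lower in none. DAC added to ATRA lowered none of the 12, and it raised 1, ISG15. DAC stood apart in 8 of them, untreated in 3 and DAC+ATRA in 1. Without DAC replicate 3, 14 members were called above and none below.

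Some promoters of these genes are shown for matches to the interferon-stimulated response element, and not every member held a match. The core letters of that element, TTTC followed after any 2 bases by TTTC, were searched on both strands, from 250 bases before to 50 after the start of each gene, in the RefSeq promoters of GRCh38.p14. Of the 12 called members 10 had such a window, and 8 of these (80.0%) held the letters, beside 24 of 39 (61.5%) of all tested members with a window. Among the 8649 tested genes with a window 2.96% held them, among those called above the sum 14.0% (8 of 57) and among those called below it 4.69% (3 of 64). The 8 above the sum are the same 8 interferon list members. The 3 below it are NCF1, PLXNC1 and TNFSF10, which are not on that list, and DAC was the highest group for TNFSF10. A stretch of 120 bases is given for 5 of the 8, with the matching letters in capitals (GAAA in place of TTTC where the match is on the other strand) and overlapping matches joined, and each reads in the direction of its gene.
IFI44L, chr1:78620274-78620393, plus strand: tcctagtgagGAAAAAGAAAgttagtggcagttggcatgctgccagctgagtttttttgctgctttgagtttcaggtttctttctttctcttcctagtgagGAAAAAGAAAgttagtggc
IFI44, chr1:78649669-78649788, plus strand: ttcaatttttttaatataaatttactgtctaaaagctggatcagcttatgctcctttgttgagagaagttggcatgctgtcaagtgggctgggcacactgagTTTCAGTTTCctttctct
IFIT3, chr10:89327803-89327922, plus strand: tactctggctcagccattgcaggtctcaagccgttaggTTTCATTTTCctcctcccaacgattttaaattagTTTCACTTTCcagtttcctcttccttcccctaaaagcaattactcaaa
ISG15, chr1:1013332-1013451, plus strand: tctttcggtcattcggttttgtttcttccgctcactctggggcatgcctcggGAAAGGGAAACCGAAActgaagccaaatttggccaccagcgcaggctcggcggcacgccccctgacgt
DDX60, chr4:168318759-168318878, minus strand: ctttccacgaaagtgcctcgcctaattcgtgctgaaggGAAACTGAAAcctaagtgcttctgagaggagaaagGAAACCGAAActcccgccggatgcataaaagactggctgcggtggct
A match of letters is a description and not a measured binding site.

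IFI44L and IFI44, which lie side by side on chromosome 1 from 78619902 to 78646145 and on chromosome 1 from 78649796 to 78664078 (hg38), had the largest interactions of the list. The stretch printed for IFI44L lies inside its interval, because the RefSeq start used for the window differs from the start of that interval. IFI44L had 49.0, 79.6 and 33.2 in untreated, 0, 0 and 5.44 in DAC, 21.5, 21.6 and 34.3 in ATRA, and 15.4, 46.2 and 49.0 in DAC+ATRA normalised counts. The DAC libraries were the lowest and overlapped no other group. Its interaction was 5.17 ± 0.85 (SE; limma adjusted p 0.00109), and it changed by -4.80 with DAC alone and by 0.37 with DAC added to ATRA. With 0, 0 and 5.44 in DAC, the sizes of 5.17 and -4.80 depend on the value added before taking logs. IFI44 had 116, 172 and 87.2 in untreated, 7.63, 9.41 and 20.7 in DAC, 20.6, 23.1 and 15.9 in ATRA, and 43.4, 28.1 and 34.7 in DAC+ATRA. Here all treated groups lay below untreated, and DAC+ATRA was the highest of the 3. The interaction was 4.08 ± 0.49 (SE; limma adjusted p 4.7e-05).

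IFIT3, which inhibits the translation of viral RNA with its relatives, had 93.3, 122 and 77.2 in untreated, 12.7, 20.4 and 8.71 in DAC, 58.2, 55.1 and 63.5 in ATRA, and 72.8, 55.2 and 48.0 in DAC+ATRA normalised counts. The DAC libraries were the lowest, and the ATRA and DAC+ATRA libraries overlapped. The interaction of IFIT3 was 2.74 ± 0.40 (SE; limma adjusted p 0.0004). RSAD2, which encodes the antiviral enzyme viperin, had 145, 184 and 106 in untreated, 17.8, 34.5 and 44.6 in DAC, 137, 119.8 and 125 in ATRA, and 193, 143 and 200.1 in DAC+ATRA. All 3 DAC libraries lay below every other library, and the other groups overlapped in part. Its interaction was 2.66 ± 0.38 (SE; limma adjusted p 0.000325). OAS2 and OAS3, neighbours on chromosome 12, make the messenger that activates RNase L, and OAS3 had 71.5, 77.1 and 57.7 in untreated, 13.993, 14.1 and 21.8 in DAC, 195, 164 and 161 in ATRA, and 279, 276 and 286 in DAC+ATRA. OAS3 was thus lowest in DAC and highest in DAC+ATRA with no overlap between any groups, and its interaction was 2.69 ± 0.28 (SE; limma adjusted p 1.21e-05). That of OAS2 was 2.72 ± 0.42 (SE; limma adjusted p 0.000627), with means of 57.7 ± 18.7 in untreated, 11.5 ± 1.03 in DAC, 28.1 ± 5.11 in ATRA and, with both drugs, 41.6 ± 9.23 (SD, n = 3 libraries).

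ISG15, a ubiquitin-like protein, had 132, 183 and 112 in untreated, 84.0, 78.4 and 57.7 in DAC, 80.6, 72.9 and 83.6 in ATRA, and 185, 170.0 and 162 in DAC+ATRA normalised counts. Both single drugs lowered it, and the DAC+ATRA libraries overlapped the untreated ones. Its interaction was 2.05 ± 0.28 (SE; limma adjusted p 0.000201). XAF1, which encodes an antagonist of the apoptosis inhibitor XIAP, was lower in all treated groups, with means of 1251 ± 197 in untreated, 439.9 ± 65.3 in DAC, 556 ± 50.8 in ATRA and, with both drugs, 472 ± 18.9 (SD, n = 3), and its interaction was 1.27 ± 0.19 (SE; limma adjusted p 0.000454). HERC5, the ligase that attaches ISG15, had an interaction of 2.26 ± 0.44 (SE; limma adjusted p 0.00496) and was also highest in untreated. The remaining called members IFIT5, USP18 and DDX60 had interactions of 2.00, 1.92 and 1.24 and stood apart in DAC. SIGLEC1, a sialic acid receptor of macrophages that is placed on another list, had 21.8, 41.4 and 16.9 in untreated, 8.90, 10.977 and 5.44 in DAC, 31.4, 30.5 and 25.9 in ATRA, and 77.0, 108 and 99.0 in DAC+ATRA, with no overlap between DAC+ATRA and the other groups, and an interaction of 3.15 ± 0.47 (SE; limma adjusted p 0.000461). Of 26 tested members of the interferon gamma and IRF1 list, 1 was called above (APOL6, 0.92) and 2 below (SOCS3, -1.41, and JAK2, -0.87), with a list median of 0.09. None of 14 nucleic acid sensors, 11 MHC class I genes and 6 MHC class II genes was called, and the medians of these lists were 0.07, -0.05 and -0.25. With 1.6% of all genes called, lists of this size can hold none at that share.

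**Figure D4:**
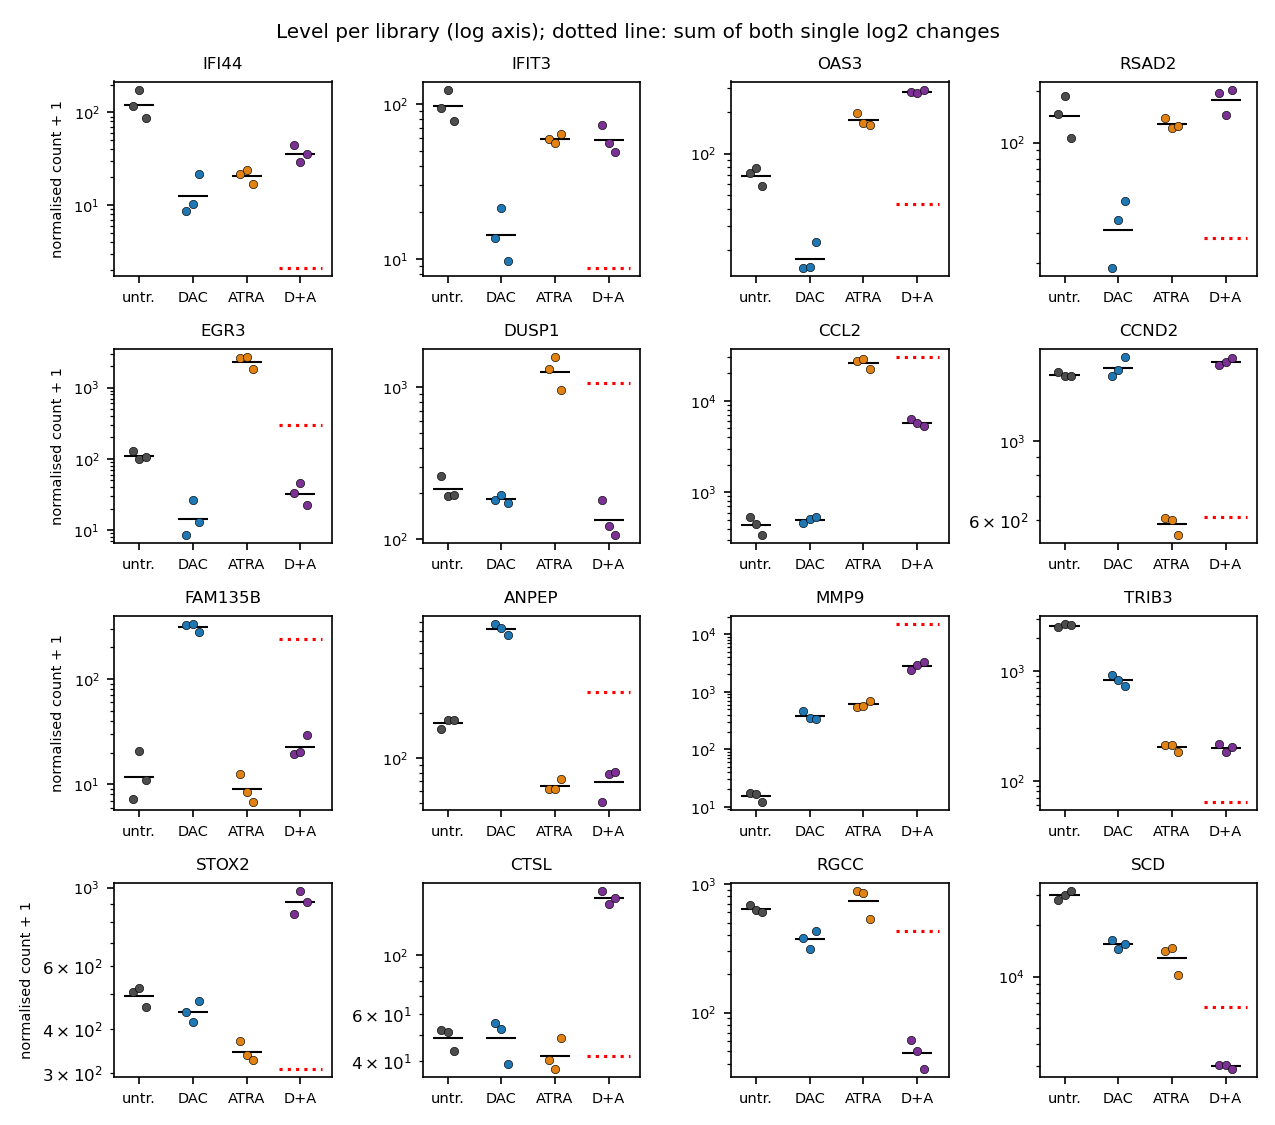
Normalised count + 1 (log axis) of 16 called genes in the 12 libraries, with points for libraries, bars for the mean of the log2 values of a group, and a dotted line where the sum of both single log2 changes would place DAC+ATRA. In the top row the DAC+ATRA libraries lie above the dotted line, as do those of CCND2, TRIB3, STOX2 and CTSL, and in the other 8 panels they lie below it.

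The list of immediate-early genes and targets of the ERK kinase formed the largest theme below the sum. All of its called members were highest in ATRA. The ERK outputs DUSP4, DUSP6, SPRY2, SPRY4, ETV4 and ETV5 on the list were tested and not called. Such genes are transcribed within minutes of growth factor or stress signals, and many encode transcription factors or phosphatases that limit the signal. Of 38 tested members, 10 were called below the sum and none above, beside 0.874% of all genes below. The median of the list was -0.65, with 25 members negative and 13 positive, up to 2.18. The 10 were called higher in ATRA than in untreated, and they were called lower in DAC+ATRA than in ATRA. Over all 38, 20 were called higher in ATRA than in untreated and 5 lower (12.1% and 14.0% of all genes). In DAC+ATRA against ATRA, 24 were called lower and 1 higher (5.46% and 6.47% of all). ATRA stood apart in all 10 and was clear of the other groups in 9. Against DAC alone, DAC+ATRA was called higher in 4 of the 10. Without DAC replicate 3, 11 members were called below.

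DUSP1, a phosphatase that switches off MAP kinases, lies on chromosome 5 from 172768096 to 172771195 and had 259, 192 and 195 in untreated, 181, 194 and 171 in DAC, 1313, 1578 and 961 in ATRA, and 179, 122 and 106 in DAC+ATRA normalised counts. The 3 ATRA libraries were the highest, and the DAC+ATRA libraries overlapped the DAC ones and lay below the untreated ones. Its interaction was -3.01 ± 0.28 (SE; limma adjusted p 3.43e-06). EGR3, a zinc finger factor of the EGR family, had 127, 98.2 and 104 in untreated, 7.63, 25.1 and 11.973 in DAC, 2609, 2656 and 1799 in ATRA, and 32.2, 45.0 and 21.4 in DAC+ATRA. DAC alone lowered it and ATRA alone raised it, and the DAC+ATRA libraries lay below the untreated ones. The interaction of EGR3 was -3.21 ± 0.45 (SE; limma adjusted p 0.000249). RASGEF1B, an exchange factor for small GTPases, had 14.8, 25.2 and 21.955 in untreated, 7.63, 12.5 and 6.53 in DAC, 163, 213 and 126 in ATRA, and 1.400, 4.50 and 4.08 in DAC+ATRA, lowest with both drugs and highest with ATRA. Its interaction was -4.20 ± 0.54 (SE; limma adjusted p 0.000123), a size that depends on the value added before taking logs.

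The Krüppel-like factors KLF2, KLF4, KLF6 and KLF10 were called together. KLF4, which takes part in monocyte differentiation, had 45.1, 40.6 and 39.5 in untreated, 82.7, 69.0 and 44.6 in DAC, 199, 228 and 173 in ATRA, and 40.6, 46.2 and 56.2 in DAC+ATRA normalised counts. The ATRA libraries were the highest and the other groups overlapped, and the interaction of KLF4 was -2.64 ± 0.32 (SE; limma adjusted p 6.24e-05). KLF10 had means of 103 ± 19.7 in untreated, 56.1 ± 27.0 in DAC, 459 ± 84.0 in ATRA and, with both drugs, 33.2 ± 8.35 (SD, n = 3) and an interaction of -2.82 ± 0.39 (SE; limma adjusted p 0.000237). KLF6 and KLF2 had interactions of -1.75 and -1.46. FOS, FOSB and IER5 had interactions of -1.31, -2.06 and -0.81, and in these 3 genes the mean of DAC+ATRA stayed above that of untreated. EGR1 was not called, with an interaction of -0.58 and a limma adjusted p of 0.404, although its ATRA mean of 699.5 also exceeded the other means. NF-kB targets, which respond to many of the same signals, had a median of -0.53 with 18 of 21 members negative, and none was called.

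CCL2, a chemokine that attracts monocytes, had 541, 447 and 344 in untreated, 461, 509.7 and 539.9 in DAC, 27313, 28630.4 and 22279.5 in ATRA, and 6337, 5692 and 5315 in DAC+ATRA normalised counts. It rose with ATRA in both settings, and DAC+ATRA lay between ATRA and the groups without ATRA. The interaction of CCL2 was -2.37 ± 0.20 (SE; limma adjusted p 1.94e-06). CXCL8, which attracts neutrophils, had 3272, 2548 and 2342 in untreated, 621, 794 and 1049 in DAC, 7884, 9548 and 7481 in ATRA, and 918, 669 and 636 in DAC+ATRA, so that both DAC-treated groups lay below untreated, and its interaction was -1.75 ± 0.25 (SE; limma adjusted p 0.000299).

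CSF1, the growth factor of macrophages, was highest in ATRA and at no more than 3 reads in every DAC+ATRA library, so the size of its interaction of -3.78 depends on the value added before taking logs. Among the 32 cytokines, chemokines and growth factors, 4 were called below (CCL2, CXCL8, CSF1 and TNFSF10) and 1 above (HBEGF), with a median of -0.12. TREM1, a receptor that amplifies inflammation, had 154, 170.5 and 141 in untreated, 202, 185 and 181 in DAC, 429, 379.5 and 359 in ATRA, and 105, 102 and 113 in DAC+ATRA normalised counts. DAC+ATRA lay below untreated and ATRA above every other group, with an interaction of -2.14 ± 0.20 (SE; limma adjusted p 3.43e-06). ITGAX, the integrin chain CD11c, had means of 251 ± 20.5 in untreated, 237 ± 20.1 in DAC, 1099 ± 115 in ATRA and, with both drugs, 453 ± 36.3 (SD, n = 3) and an interaction of -1.19 ± 0.18 (SE; limma adjusted p 0.000451). With SIGLEC1 above, these 2 were the called members of the 39 monocyte and macrophage receptors, whose median was -0.36. HCAR2, the receptor of nicotinic acid, had an interaction of -4.01, and its counting is uncertain because HCAR3 is a near-identical copy.

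Among regulators, BTG2, which slows the cell cycle, had 2576, 2442 and 2285 in untreated, 804, 754 and 940.5 in DAC, 15552, 17986 and 12605 in ATRA, and 1817, 1929 and 1784 in DAC+ATRA normalised counts, with ATRA highest and DAC lowest. Its interaction was -1.50 ± 0.17 (SE; limma adjusted p 3.43e-05). PLK3 had an interaction of -1.23 and the same group apart. With GDF15, which was called above, these were the called members of the 31 p53 targets, whose median was -0.02. SOCS3, the inhibitor of JAK kinases, had 1109, 1058 and 851 in untreated, 429, 436 and 361 in DAC, 4861, 6268 and 4054 in ATRA, and 885, 742 and 684 in DAC+ATRA, and its DAC+ATRA libraries lay within or below the untreated range. Its interaction was -1.41 ± 0.21 (SE; limma adjusted p 0.00048). DBI, the acyl-CoA binding protein, had 51.3, 51.1 and 52.7 in untreated, 50.9, 37.6 and 46.8 in DAC, 300.1, 453 and 317 in ATRA, and 56.0, 39.4 and 51.1 in DAC+ATRA. Only ATRA stood out for DBI, with an interaction of -2.63 ± 0.30 (SE; limma adjusted p 3.29e-05). MEIS1, a cofactor of HOXA9 that sustains MLL-fusion leukemia, had means of 255 ± 24.8 in untreated, 254 ± 35.4 in DAC, 612 ± 43.8 in ATRA and, with both drugs, 277 ± 13.9 (SD, n = 3) and an interaction of -1.13 ± 0.19 (SE; limma adjusted p 0.00125). It was the called member among 10 genes of the HOXA cluster, MEIS1 and PBX3. NCF1, a subunit of the NADPH oxidase with near-identical pseudogenes, had an interaction of -1.05, and CTSB, a lysosomal protease, one of -0.92. The call of CTSB held in 15 of 22 other fits.

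The 39 genes in which ATRA stood apart as the lowest group lie above the sum by the rule that names the group. CCND2, cyclin D2, lies on chromosome 12 from 4269771 to 4305353 and had 1557, 1517 and 1519.9 in untreated, 1521, 1578 and 1715 in DAC, 607, 598 and 545 in ATRA, and 1635, 1663 and 1703 in DAC+ATRA normalised counts. ATRA was the lowest group by a wide margin, and DAC+ATRA did not fall below untreated. The interaction of CCND2 was 1.45 ± 0.13 (SE; limma adjusted p 3.43e-06). It was the called member of the 13 genes of the p21 family and cyclins, whose median was 0.22. ADRB1, the beta-1 adrenergic receptor, had 183, 157 and 164 in untreated, 142, 152 and 134 in DAC, 24.2, 32.0 and 35.1 in ATRA, and 129, 113 and 141 in DAC+ATRA. ATRA alone lowered it, with an interaction of 2.27 ± 0.26 (SE; limma adjusted p 3.29e-05). FAM124A had 138, 107 and 135 in untreated, 119.6, 129 and 152 in DAC, 2.69, 3.72 and 3.34 in ATRA, and 36.4, 32.6 and 28.6 in DAC+ATRA, lowest in ATRA and higher again with both drugs, and its interaction was 2.91 ± 0.34 (SE; limma adjusted p 3.59e-05). With so few counts in ATRA, this size depends on the value added before taking logs.

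GDF11, a growth factor of the TGF-beta family, had means of 1145 ± 159 in untreated, 896 ± 113 in DAC, 247 ± 54.4 in ATRA and, with both drugs, 535 ± 42.4 (SD, n = 3) and an interaction of 1.49 ± 0.21 (SE; limma adjusted p 0.000314). ULBP2, a ligand of the receptor NKG2D of natural killer cells, had 31.9, 47.1 and 35.1 in untreated, 25.4, 21.955 and 26.1 in DAC, 3.58, 2.23 and 0.836 in ATRA, and 11.2, 19.1 and 11.2 in DAC+ATRA normalised counts. Its ATRA libraries were the lowest, and its interaction was 2.86 ± 0.56 (SE; limma adjusted p 0.00501). The size again depends on the value added before taking logs. LYL1 and CEBPA were called among 32 hematopoietic transcription factors, and their interactions were 0.95 and 0.92. CEBPA, the factor that directs granulocyte and monocyte development, had 13559, 15121 and 17452 in untreated, 14022, 13028 and 9246 in DAC, 5729, 6084 and 6375 in ATRA, and 9732, 8514 and 8661 in DAC+ATRA. By mean, ATRA was the lowest group and DAC+ATRA the next, with an adjusted p of 0.00813 by limma, and the call held in 11 of 23 other fits. CDT1, which loads the replicative helicase, had an interaction of 1.03 and was the called gene of 49 in DNA replication, with a call that held in 11 of 23 other fits. In that list 40 were positive and the median was 0.34. PLAU, the urokinase, was called above (1.29) and is on the list of coagulation and fibrinolysis.

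Genes that were lowest in DAC included, besides the interferon group, members of the retinoid and ATF4 lists. TGM2 and DHRS3, tissue transglutaminase and a reductase of retinal, are induced by retinoic acid receptors. DHRS3 had 447, 509.8 and 404 in untreated, 159, 130.2 and 86.0 in DAC, 7925, 9629.8 and 8728 in ATRA, and 7385, 7897 and 7429 in DAC+ATRA normalised counts. DAC alone lowered it, and DAC added to ATRA changed it by -0.21 (limma adjusted p 0.403). The interaction of DHRS3 was 1.68 ± 0.23 (SE; limma adjusted p 0.000185) on the log2 scale, where differences of the plain levels have the opposite sign. TGM2 had 84.0, 77.9 and 70.9 in untreated, 40.7, 50.2 and 45.7 in DAC, 15975, 13182 and 13910.3 in ATRA, and 15475, 15789 and 15286 in DAC+ATRA, with an interaction of 0.87 ± 0.16 (SE; limma adjusted p 0.00263). Of the 17 retinoid genes these 2 were called, and the median was 0.05. THBS1, a matrix protein that activates TGF-beta, had 103, 119 and 95.3 in untreated, 25.4, 48.6 and 37.0 in DAC, 4294, 3548 and 3527 in ATRA, and 7321, 7733 and 7882 in DAC+ATRA. It fell with DAC alone and rose further when DAC was added to ATRA, with no overlap between any groups. The interaction of THBS1 was 2.55 ± 0.24 (SE; limma adjusted p 3.45e-06).

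HBEGF, a ligand of the EGF receptor, had 486, 445 and 472 in untreated, 252, 196 and 238 in DAC, 3025, 2920.0 and 2531 in ATRA, and 3159, 3152 and 3189.8 in DAC+ATRA normalised counts. DAC lowered it without ATRA and changed it by 0.17 with ATRA, for an interaction of 1.20 ± 0.16 (SE; limma adjusted p 0.000137). DDIT4, an inhibitor of mTORC1 that is induced by stress, had 1987, 2036 and 1746 in untreated, 492, 434 and 415 in DAC, 1587, 1911 and 1663 in ATRA, and 1022, 1041 and 949.6 in DAC+ATRA. DAC alone was lowest and the interaction was 1.33 ± 0.15 (SE; limma adjusted p 3.59e-05). DDIT4, TRIB3 and SLC7A1 were the called members of 31 genes of the ATF4 and serine pathway, of which 27 were positive with a median of 0.58. TRIB3, a pseudokinase that ATF4 induces, had 2538, 2679.9 and 2616 in untreated, 924, 828 and 739 in DAC, 213, 212 and 184 in ATRA, and 214, 183 and 201 in DAC+ATRA. Both drugs lowered it, and DAC added to ATRA changed it by -0.02. Its interaction was 1.63 ± 0.17 (SE; limma adjusted p 8.61e-06). SLC7A1, a transporter of arginine and lysine, had an interaction of 1.11. APOL6 had means of 2470.2 ± 234 in untreated, 1319 ± 108 in DAC, 2381 ± 50.4 in ATRA and, with both drugs, 2406 ± 117 (SD, n = 3), so DAC changed it by -0.90 without ATRA and by 0.01 with it, with an interaction of 0.92 ± 0.14 (SE; limma adjusted p 0.000635). ALOX12, a lipoxygenase, had an interaction of 0.88 with a call that held in 13 of 23 other fits, and on plain levels its sign was the opposite.

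DAC stood apart as the highest group in 10 genes, which by the same rule lie below the sum. FAM135B had 6.22, 19.5 and 10.037 in untreated, 324, 328 and 279 in DAC, 11.6, 7.44 and 5.85 in ATRA, and 18.2, 19.1 and 28.6 in DAC+ATRA normalised counts. The 3 DAC libraries exceeded every other library by a wide margin, and the interaction was -3.40 ± 0.50 (SE; limma adjusted p 0.000418). ANPEP, the myeloid surface peptidase CD13, lies on chromosome 15 from 89784895 to 89815401 and had 156, 179 and 178 in untreated, 773, 735 and 662 in DAC, 60.9, 61.8 and 71.1 in ATRA, and 50.4, 77.7 and 79.6 in DAC+ATRA. DAC raised it in the absence of ATRA, and both ATRA-treated groups overlapped below untreated. The interaction of ANPEP was -2.001 ± 0.25 (SE; limma adjusted p 7.29e-05). ALDH2, the mitochondrial aldehyde dehydrogenase, had 68.4, 82.0 and 83.4 in untreated, 172, 210.1 and 250.4 in DAC, 79.7, 93.0 and 88.6 in ATRA, and 81.2, 67.5 and 61.3 in DAC+ATRA. Its DAC libraries were the highest, and its interaction was -1.73 ± 0.26 (SE; limma adjusted p 0.000569). CYP4F3, which degrades leukotriene B4, had an interaction of -2.79 and, with ALOX12, was one of the called members of 15 prostaglandin and leukotriene genes. PELI2 had one of -1.75, and CD52, a surface antigen of lymphocytes and monocytes, one of -0.89. CD52 was the called gene of 14 in the list of FLT3, PIM and STAT5 output, and its call held in 12 of 23 other fits. CST7, an inhibitor of granule proteases, had 2576, 2522 and 2276 in untreated, 4138, 3724 and 3591 in DAC, 703, 906 and 1002 in ATRA, and 659, 598 and 588 in DAC+ATRA. DAC raised it in the absence of ATRA and lowered it in its presence, for an interaction of -1.12 ± 0.17 (SE; limma adjusted p 0.000568).

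**Figure D5:**
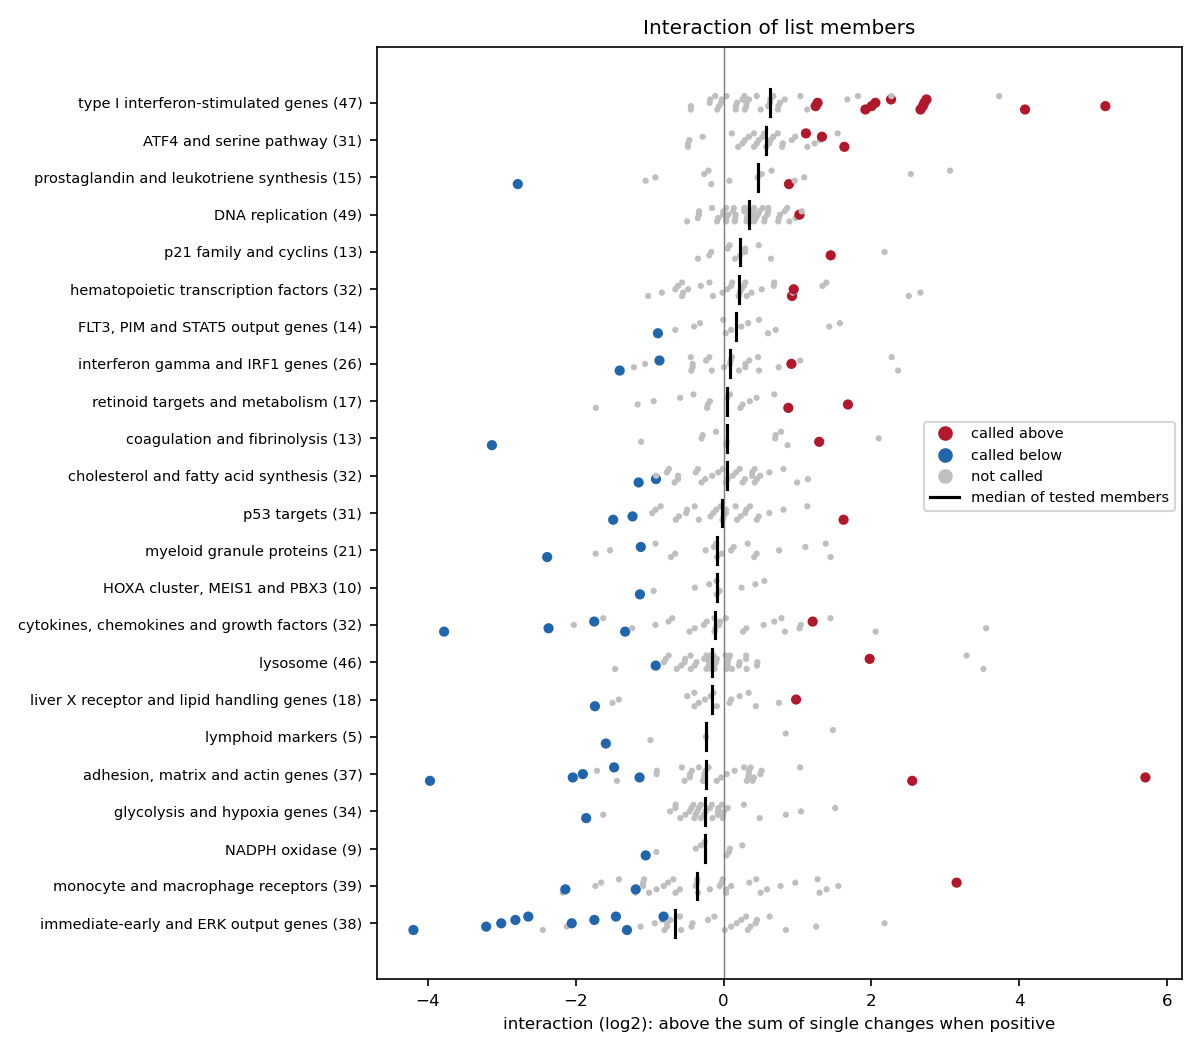
Interaction (log2, x axis) of the tested members of the 23 gene lists with at least 1 called member, with the number tested in parentheses; large points are called genes and black bars are list medians. Type I interferon-stimulated genes have the highest median (0.63) and immediate-early and ERK output genes the lowest (-0.65).

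Untreated was the group apart in 32 called genes, 20 of them lowest in untreated and so by that rule below the sum. MMP9, a gelatinase of granules and macrophages, lies on chromosome 20 from 46008908 to 46016561 and had 16.3, 15.4 and 11.3 in untreated, 466, 342 and 331 in DAC, 550.1, 562 and 699 in ATRA, and 2371, 2971 and 3257 in DAC+ATRA normalised counts. Both drugs raised it and DAC+ATRA was the highest with no overlap. The interaction of MMP9 was -2.39 ± 0.24 (SE; limma adjusted p 8.61e-06) on the log2 scale, whereas on plain levels DAC+ATRA exceeded the sum of the single differences. With CST7 it was called among 21 myeloid granule proteins, whose median was -0.09. HK3, the hexokinase of myeloid cells, had 212, 214 and 242 in untreated, 1368, 1104 and 783 in DAC, 785, 912 and 1172 in ATRA, and 1041, 1405 and 1272 in DAC+ATRA. All treated libraries lay above the untreated ones and overlapped with each other, and the interaction was -1.86 ± 0.25 (SE; limma adjusted p 0.000176). SCPEP1, a carboxypeptidase, and RFLNB had smaller interactions of -0.87 and -0.77.

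SMPD3, a neutral sphingomyelinase, had 8.55, 14.6 and 10.7 in untreated, 66.2, 72.1 and 59.9 in DAC, 327, 358 and 467 in ATRA, and 304, 296 and 297 in DAC+ATRA normalised counts. Its DAC+ATRA libraries lay just below the ATRA libraries, and its interaction was -2.82 ± 0.28 (SE; limma adjusted p 8.61e-06). ABCA1, the exporter of cholesterol, had 253, 255 and 231 in untreated, 481, 505 and 492 in DAC, 1834, 2859.7 and 2832 in ATRA, and 1386, 1433 and 1595 in DAC+ATRA. DAC raised it alone and lowered it on top of ATRA, and the interaction was -1.74 ± 0.20 (SE; limma adjusted p 3.39e-05). PLIN2, a coat protein of lipid droplets, was the other called gene among 18 liver X receptor and lipid handling genes, above the sum (0.98), and was lower in all treated groups. CYP27A1, a sterol hydroxylase, had means of 674 ± 19.8 in untreated, 1134 ± 174 in DAC, 20133 ± 2275 in ATRA and, with both drugs, 16778 ± 492 (SD, n = 3) and an interaction of -0.995 ± 0.16 (SE; limma adjusted p 0.000932). ITGB7, an integrin chain of leukocytes, had one of -1.48.

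In the opposite direction, IL2RA, the alpha chain of the interleukin-2 receptor, had 67.7, 77.1 and 52.1 in untreated, 12.7, 18.8 and 14.2 in DAC, 24.2, 12.7 and 20.9 in ATRA, and 51.8, 23.6 and 42.9 in DAC+ATRA normalised counts. Both drugs alone lowered it, and the DAC+ATRA libraries lay between untreated and the single drugs, overlapping ATRA in part. The interaction of IL2RA was 3.01 ± 0.47 (SE; limma adjusted p 0.000627). CA2, carbonic anhydrase 2, had 12545, 13918 and 18389.5 in untreated, 7522, 6089 and 6323 in DAC, 758, 691 and 555 in ATRA, and 1075, 931 and 887 in DAC+ATRA, with an interaction of 1.69 ± 0.20 (SE; limma adjusted p 4.32e-05). RAB33A had means of 444 ± 40.8 in untreated, 255 ± 44.003 in DAC, 148 ± 21.8 in ATRA and, with both drugs, 198 ± 2.81 (SD, n = 3) and an interaction of 1.23 ± 0.21 (SE; limma adjusted p 0.00169).

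DAC+ATRA itself stood apart in the fewest genes, of which 8 were raised and 9 lowered. STOX2 lies on chromosome 4 from 183797692 to 184023526 and had 508, 521 and 459 in untreated, 445, 416 and 477 in DAC, 367, 336 and 325 in ATRA, and 844, 975 and 911 in DAC+ATRA normalised counts. The DAC+ATRA libraries exceeded all others although neither single drug raised the gene. The interaction of STOX2 was 1.56 ± 0.16 (SE; limma adjusted p 9.4e-06). CTSL, the lysosomal protease cathepsin L, had 51.3, 50.3 and 42.7 in untreated, 54.7, 51.8 and 38.1 in DAC, 39.4, 36.5 and 47.7 in ATRA, and 172, 154 and 162 in DAC+ATRA. Neither single drug gave a call against untreated, and the interaction was 1.98 ± 0.29 (SE; limma adjusted p 0.000451). CTSL above and CTSB below were the called members of 46 lysosome genes, whose median was -0.16. GDF15, a stress-induced cytokine of the TGF-beta family, had 32.7, 45.5 and 28.9 in untreated, 22.9, 23.5 and 28.3 in DAC, 125, 123 and 129 in ATRA, and 280.0, 281 and 274 in DAC+ATRA. It rose with ATRA and further with both drugs, for an interaction of 1.62 ± 0.28 (SE; limma adjusted p 0.00168).

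CCN4, a matrix protein that Wnt signals induce, had 0.778, 0 and 0 in untreated, 1.27, 7.84 and 0 in DAC, 1.79, 3.72 and 3.34 in ATRA, and 465, 466 and 423 in DAC+ATRA normalised counts, high in DAC+ATRA and at or near 0 in the other groups. All its untreated libraries were at 3 reads or fewer, so its fitted interaction of 5.71 depends on the value added before taking logs. INSYN2B was at or under 3 reads in all libraries of the other groups and at 32.0 ± 1.51 in DAC+ATRA. The calls of both depended on the fit: that of CCN4 held in 20 of 22 other fits and that of INSYN2B in 16 of 22.

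RGCC, a regulator of the cell cycle that responds to p53 and complement, lies on chromosome 13 from 41457550 to 41470871 and had 685, 628 and 601 in untreated, 377, 312 and 427 in DAC, 873, 848 and 536 in ATRA, and 60.2, 49.5 and 35.7 in DAC+ATRA normalised counts. The DAC+ATRA libraries were the lowest by a wide margin, and ATRA alone left the gene near untreated. The interaction of RGCC was -3.14 ± 0.28 (SE; limma adjusted p 2.87e-06). EMP1, an epithelial membrane protein, had 84.0, 119 and 88.4 in untreated, 38.2, 39.2 and 40.3 in DAC, 51.1, 52.1 and 41.0 in ATRA, and 0, 1.13 and 0 in DAC+ATRA. With at most 1 read in a DAC+ATRA library, its interaction of -3.97 is no bound, and on plain levels the sign was the opposite. NKG7, a granule membrane protein of cytotoxic cells, had 736, 737 and 672 in untreated, 1062, 861 and 702 in DAC, 1013, 1099 and 1282 in ATRA, and 396, 517 and 444 in DAC+ATRA. It was lower in DAC+ATRA than in every other library, with an interaction of -1.59 ± 0.20 (SE; limma adjusted p 9.95e-05), and was the called gene of 5 lymphoid markers.

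SCD, the stearoyl-CoA desaturase, is a target of SREBP factors and had 28337, 30311 and 31700.4 in untreated, 16395, 14503 and 15555 in DAC, 14134, 14707 and 10203 in ATRA, and 3025, 3018 and 2882 in DAC+ATRA normalised counts. Each drug lowered it and DAC+ATRA was the lowest without overlap, for an interaction of -1.15 ± 0.17 (SE; limma adjusted p 0.000451). On plain levels the fall with both drugs was less than the sum of the single falls. It was among the called members of 32 cholesterol and fatty acid synthesis genes, whose median of 0.04 lay near that of all genes. Among 37 adhesion, matrix and actin genes, THBS1 and CCN4 were called above, EMP1, ANXA1, ITGB7, CD44 and COL1A1 below, and the median was -0.24. The calls of CD44 and COL1A1 held in 12 of 22 and 9 of 23 other fits.

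Several lists held few or no called genes. Over all genes 1.6% were called, so a small list can hold none at that share. The counts of called members of the lists above stand beside the same share. HK3 was the called member of 34 glycolysis and hypoxia genes, with a median of -0.25 and 27 negative, and NCF1 that of 9 NADPH oxidase genes, with a median of -0.26. None was called among 76 cytosolic ribosomal proteins (median 0.15, 69 positive), 47 nucleolar and ribosome assembly genes (0.32, 40 positive), 49 mitosis genes (0.22), 54 genes of oxidative phosphorylation (-0.03) and 356 ZNF zinc finger genes (0.16). The same held for 15 members of the BCL2 family (-0.18), 13 DNA methylation enzymes (-0.05), 9 germline and cancer/testis genes (-0.27) and 6 erythroid and megakaryocyte genes (0.68). The sizes of the called interactions started at 0.62 and had a median of 1.41. Of 14 tested genes that the study discusses, none was called, and CYP26A1, LYZ, MYC, IL7R and GBP4 had an unadjusted limma p under 0.05, with interactions of -1.73, 0.75, 1.25, 0.84 and 2.36. Over all 10641 tested genes, 1570 had such a p. The study showed the induction of HIC1, CYP26A1, GBP4 and LYZ by both drugs in U937 cells. It gave IL7R and MYC for blasts of patients, so these are other cells than MOLM-13. Further calls of named genes that held in no more than 15 other fits were those of TNFSF10, HCAR2 and HERC5 (15), USP18 and ULBP2 (14), FOSB, PLAU, PLIN2 and SLC7A1 (13), and JAK2 and CYP4F3 (12), each of 22 or 23. In all, 69 of the 170 called genes were on 1 of the 37 lists or more, and 101 were on none.

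Most called genes kept their direction on plain levels. As they were chosen by their log2 interaction, this describes them and is no test of scale. When the interaction was taken as a difference of plain normalised counts, 72 of the 77 genes above the sum and 89 of the 93 below it kept their sign, and 9 did not. Calls were more frequent among genes that the table lists with 1 transcript (88 of 2852, 3.09%) than among those with several (82 of 7789, 1.05%). The median SE of the interaction was 0.207 in the former and 0.325 in the latter.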

How the data were processed

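RNA of MOLM-13 cells was depleted of ribosomal RNA and sequenced as strand-specific paired-end libraries. Per the labels and methods the authors used FastQC, STAR on hg38, HTSeq and DESeq2; versions are not given in the sources used here. The deposited values are a signal, reads per transcript divided by 1 size factor per library, here called normalised counts. In every library 100% of values were whole multiples of 1 step (tolerance 0.01), so reads could be recovered. Counting per transcript appears to leave out reads that fit several transcripts, so levels are not compared between genes, beyond the choice of named genes. The CTRL columns of the table stand for untreated.

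The 100502 rows were summed per gene symbol. Gene type and coordinates came from GENCODE on GRCh38, the assembly of hg38, and 88.9% of rows matched a transcript. The design had named edgeR for whole counts; since the values are normalised, the test was limma 3.58.1 (R 4.3.3; lmFit, eBayes with trend) on log2(normalised count + 1), which understates changes of low genes, over all 12 libraries with 1 coefficient per group, two-sided, with Benjamini-Hochberg adjustment over all 10641 genes and a threshold of 0.01 as in the study. edgeR 4.0.16 and DESeq2 1.42.0 on recovered reads, other scalings, pseudocounts of 0.5 and 5, a minimum of 30 or none, a replicate block, all symbols, genes with 1 transcript, a threshold of 0.05 and leaving out each library were alternatives. Calls of edgeR and DESeq2 used the same threshold, and limma was tested on simulated data. A group was at the floor when each of its libraries had 3 reads or fewer.

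Named genes were the 10 largest interactions in each direction that edgeR or DESeq2 also called (with a mean of at least 20 normalised counts in 1 group and 5 in 2), the 4 with the smallest adjusted p for each group clear apart and direction, up to 4 called members of each of 37 lists, the 3 of highest level in each direction, and genes the study discusses with an unadjusted p under 0.05. List members named outside this rule were chosen after their values were seen. The comparison, the lists and the rules were chosen with earlier results of these data known. No 2 libraries agreed within sampling noise. Replicate numbers did not pair the libraries. Some genes that these rules name are not reported here.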

Additional observations from a re-analysis of the deposited data

Results flagged for a closer look

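The interaction is a test of whether the change with DAC differs between cells with and without ATRA, and each of the 170 called genes (77 above the sum, 93 below) differs by that test. The genes with the largest interactions that edgeR or DESeq2 also called were, above the sum, IFI44L (5.17), IFI44 (4.08), SIGLEC1 (3.15), IL2RA (3.01), FAM124A (2.91), ULBP2 (2.86), IFIT3 (2.74), OAS2 (2.72), OAS3 (2.69) and RSAD2 (2.66), in log2 units. Below the sum those reported here were RASGEF1B (-4.20), HCAR2 (-4.01), EMP1 (-3.97), CSF1 (-3.78), FAM135B (-3.40), EGR3 (-3.21), RGCC (-3.14), DUSP1 (-3.01) and SMPD3 (-2.82). Of these genes, 6 are members of the type I interferon list with DAC low or untreated high, and the sizes for CSF1 and EMP1 rest on DAC+ATRA libraries with 3 reads or fewer. Those for IFI44L, RASGEF1B, FAM124A and ULBP2 rest on a group with few counts and also depend on the value added before taking logs.

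Outside the protein-coding genes, a fit over all symbols tested 2807 further symbols and called 14 of them (0.499%).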

How the results depend on the processing

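Depth limits genes with few reads, and the spread between libraries is that of 1 experiment. The count of 170 calls (77 above, 93 below; clear apart 59 in ATRA, 19 in DAC, 16 in untreated, 12 in DAC+ATRA) stayed within 1.5 times under edgeR, total-count scaling, both pseudocounts, both filters, all symbols and limma with TMM factors (the last chosen after seeing the data), with 144 to 199 calls, except that untreated was clear apart in 10 genes with no filter. DESeq2 called 340 (130 above, 210 below), with 47 clear in untreated, 108 in ATRA and 22 in DAC+ATRA. At a threshold of 0.05 there were 386 (174 and 212), with 117 clear in ATRA, 50 in untreated, 35 in DAC and 27 in DAC+ATRA. Among genes with 1 transcript, 58 were below the sum and 32 clear in ATRA. These alternatives test fewer genes, use another test or another threshold by construction. Leaving out 1 library gave 106 to 262 calls, 39 to 116 above, 67 to 146 below, 40 to 80 clear in ATRA, 12 to 25 in DAC, 8 to 31 in untreated and 8 to 17 in DAC+ATRA. Counts moved by over 1.5 times when DAC replicate 3 (262), untreated replicate 2 (106) or DAC+ATRA replicate 2 (112) was left out; the cause was not tested.

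With the replicate number as a block there were 140 calls (64 above, 76 below), of which 137 were among the 170. Deviations of same-numbered libraries correlated at -0.26 to 0.11 over 18 pairs, 2 of them over 0.1, so the numbers were not taken to pair libraries.

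For single genes, 1686 of 1845 alternative values kept their direction and side of the threshold, 153 lost the call, 6 gained one and 0 reversed; 59 of 77 named called genes kept the call in every alternative.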

Other observations

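The 14 called symbols that are not protein-coding were all annotated as long noncoding RNAs, 7 of them above the sum and 7 below. MIR223HG, the host transcript of the myeloid microRNA miR-223, had an interaction of -1.03 with a limma adjusted p of 0.00062. LINC00926 was called above the sum with an interaction of 0.96 and a limma adjusted p of 0.000716. These genes were named after their values were seen.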
